A study of Arabidopsis thaliana with 42 samples.

Results

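COR15A, LEA4-5, AT4G30650 and AT4G30660 are genes of Arabidopsis thaliana whose transcripts respond to cold, salt or water loss. They are 4 of the 22746 probe sets tested on the Affymetrix ATH1 array, where a probe set is the group of short probes that reads 1 transcript. The members were chosen by name, for their shoot values in the comparison of genotypes and in the response to excess zinc. Every shoot value of these 4 genes is therefore a description with no test, and tests of them are given for roots, whose arrays were not used in that choice.

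The arrays measured total RNA from 4-week-old plants in 12 groups. The genotypes were a T-DNA insertion mutant of both bZIP19 and bZIP23, named bzip19 bzip23, and wild type Columbia (Col-0). bZIP19 and bZIP23 are transcription factors that switch on the zinc deficiency response. All plants had grown in nutrient solution for 3 weeks at 2 µM ZnSO4 before 1 week at low (0.05 µM), normal (2 µM) or excess (25 µM) zinc. The chamber was kept at 22 °C in the light and 20 °C in the dark, and the labels name no cold, salt or drought treatment. Each sample pooled roots or shoots of 6 plants from 2 containers, with 4 samples per root group and 3 per shoot group. In bulk tissue, fewer cells of a type and less RNA per cell cannot be told apart.

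COR15A encodes a small protein that is imported into chloroplasts, where it protects membranes during freezing, and it is a classic target of the CBF cold response factors. LEA4-5 is a late embryogenesis abundant protein of group 4, a class of highly hydrophilic proteins that accumulate in drying seeds and in tissue short of water. AT4G30650 and AT4G30660 belong to the RCI2/LTI6 family, very small hydrophobic proteins of cell membranes that are related to the yeast proteolipid PMP3. Several members of that family are induced by low temperature and salt, and loss of PMP3 in yeast disturbs the membrane potential.

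Values are log2 expression after robust multi-array averaging, so that a difference of 1 is a 2-fold difference. The bZIP19 transcript matched the labels, with group means from 4.46 to 4.92 in the mutant and from 8.70 to 9.88 in wild type, and bZIP23 had no probe set paired with it alone in the platform annotation used here, in which 8730 of the tested probe sets name no gene. Of 11 photosynthetic marker genes, the 3 with a probe set of their own (LHCB4.1, PSAN and RCA) had array means of 6.32 to 8.23 in roots and 13.5 to 13.7 in shoots. Of 11 root marker genes, the 3 measured (EXPA7, EXPA18 and UPB1) had array means of 6.91 to 8.57 in roots and 5.14 to 5.50 in shoots. A pair of arrays, replicate 2 of wild type roots at excess zinc and replicate 1 of wild type shoots at low zinc, had the lowest mean correlation with their own group (0.98 each, against up to 0.997 elsewhere). The tag in the array file names, whose meaning the labels do not give, was shared by all shoot arrays at low and normal zinc and was a different one for the shoot arrays at excess zinc. Tag and zinc supply can therefore not be told apart in the shoot response to excess zinc, nor in the root response to low zinc, whereas the genotypes shared a tag at every supply.

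In shoots, COR15A, AT4G30650 and AT4G30660 shared a pattern. All 3 had lower means in the mutant than in wild type at low and at normal zinc, although the arrays of AT4G30660 overlapped at normal zinc and its difference there rested on 1 array. In the mutant all 3 were higher at excess than at normal zinc, without overlap between arrays. At excess zinc their mutant means lay above those of wild type, by 0.14 to 0.55, but only for AT4G30650 without overlap. The sign of the COR15A difference there depended on single arrays. LEA4-5 likewise had lower means in the mutant at low zinc, with overlapping arrays, and at normal zinc. At excess zinc it was also higher in the mutant, by 0.31 and without overlap. It departed from the other genes in that excess zinc went with a lower LEA4-5 level, mainly in wild type.

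**Figure D1:**
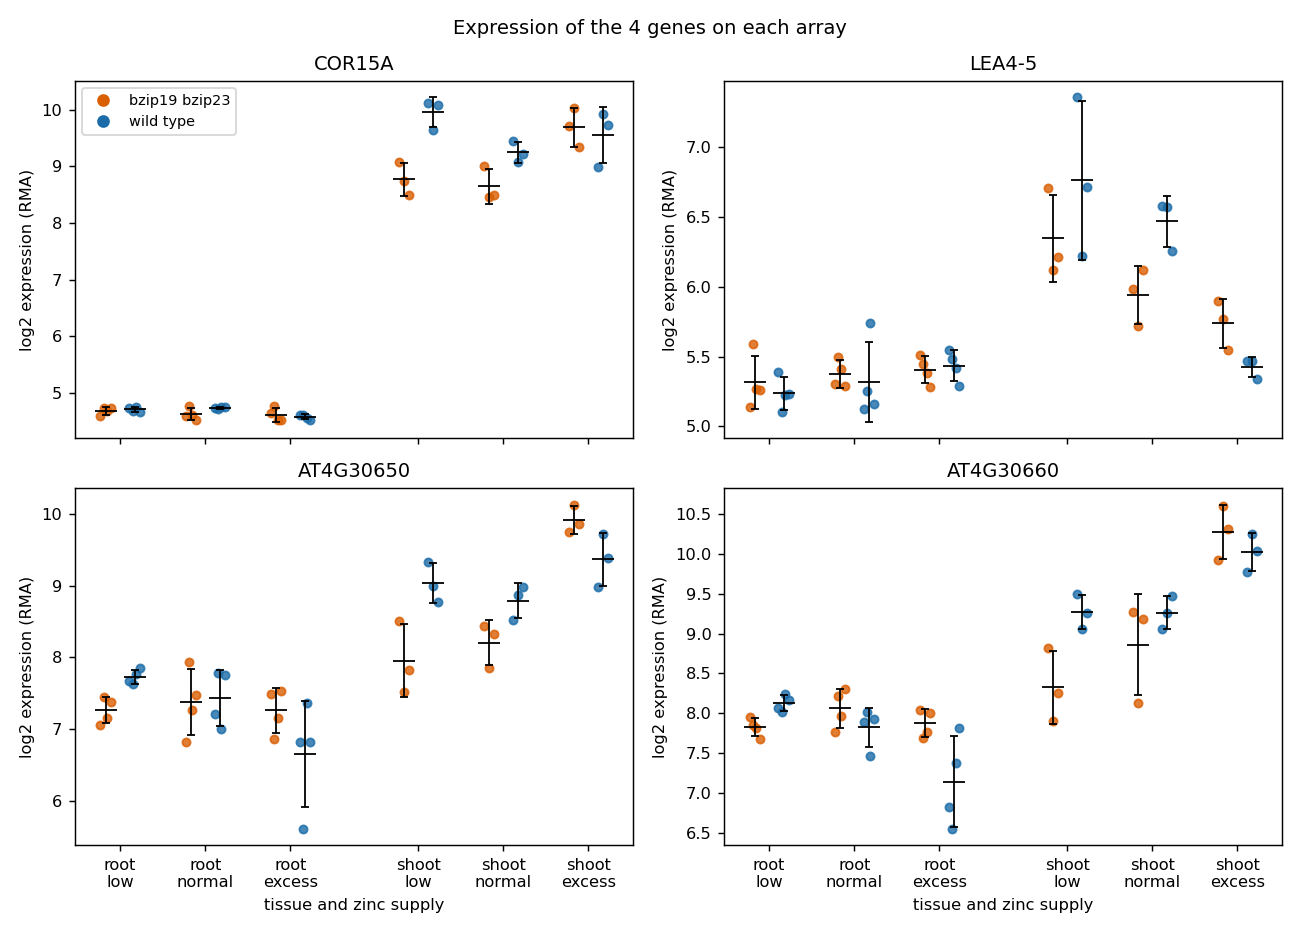
Log2 expression of the 4 genes (vertical axes) by tissue and zinc supply (horizontal axes), with a point per array, the mutant left of wild type, and bars for the mean ± SD. COR15A lies between 4.52 and 4.78 on every root array and between 8.45 and 10.13 in shoots; the highest value of AT4G30650 and that of AT4G30660 are both in mutant shoots at excess zinc.

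COR15A (AT2G42540, probe set 263497_at) had 9.08, 8.75 and 8.50 in mutant shoots at low zinc, against 10.13, 9.65 and 10.09 in wild type shoots. At normal zinc the arrays read 9.01, 8.45 and 8.50 in mutant shoots and 9.44, 9.09 and 9.21 in wild type shoots. At excess zinc they read 9.71, 10.02 and 9.34 in mutant shoots and 8.99, 9.93 and 9.73 in wild type shoots. The genotypes did not overlap at low or normal zinc and overlapped at excess zinc. The difference of mutant minus wild type was -1.18 at low zinc (2.26-fold lower), -0.59 at normal zinc and 0.14 at excess zinc, each with a standard error (SE) of 0.24 and n = 3 per group. Leaving out the wild type array at low zinc that stood apart gave -1.09 at that supply, and leaving out wild type replicate 1 at excess zinc turned the value there to -0.14.

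The response of COR15A to excess zinc, excess minus normal, was 1.04 in the mutant (2.05-fold higher) and 0.30 in wild type. Its response to low zinc, low minus normal, was 0.12 in the mutant and 0.71 in wild type. Mutant arrays at low and normal zinc overlapped, and wild type arrays did not, as for 7.35% of all probe sets that were higher at low zinc. COR15A was thus highest in wild type shoots at low zinc (mean 9.95 ± 0.27) and lowest in mutant shoots at normal zinc (8.65 ± 0.31; SD, n = 3). Along the order of its 6 shoot means, the only gap between neighbours without overlapping arrays was that between wild type at normal zinc (9.25 ± 0.18) and the mutant at low zinc (8.78 ± 0.29).

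LEA4-5 (AT5G06760, probe set 250648_at) had 6.71, 6.12 and 6.22 in mutant shoots at low zinc, against 7.36, 6.22 and 6.71 in wild type shoots, and the genotypes overlapped. At normal zinc they read 5.99, 5.72 and 6.12 in mutant shoots and 6.58, 6.57 and 6.26 in wild type shoots, without overlap. At excess zinc they read 5.90, 5.77 and 5.55 in mutant shoots and 5.47, 5.47 and 5.34 in wild type shoots, again without overlap but in the opposite order.

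The LEA4-5 difference of mutant minus wild type was -0.42 at low, -0.53 at normal and 0.31 at excess zinc (SE 0.22 each). The value at low zinc rested on single arrays: it was -0.12 without replicate 1 of wild type, the array that stood apart, and -0.69 without replicate 2. Excess minus normal zinc was -0.20 in the mutant, with overlapping arrays, and -1.04 in wild type (2.06-fold lower), without overlap. The wild type mean at excess zinc, 5.43, lay within the range of its dim root means given below, so the fold may be a lower bound. Low minus normal zinc was 0.40 in the mutant and 0.29 in wild type, and the wild type value became -0.003 without the array that stood apart.

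AT4G30650 (probe set 253627_at) had 8.51, 7.52 and 7.82 in mutant shoots at low zinc, against 9.34, 9.00 and 8.78 in wild type shoots. At normal zinc the arrays read 8.44, 7.85 and 8.33 in mutant shoots and 8.52, 8.87 and 8.99 in wild type shoots. At excess zinc they read 9.75, 10.14 and 9.87 in mutant shoots and 8.99, 9.73 and 9.39 in wild type shoots. The genotypes did not overlap at any supply, with the mutant below wild type at low and normal zinc and above it at excess zinc. Mutant minus wild type was -1.09 at low zinc (2.13-fold lower), -0.59 at normal zinc and 0.55 at excess zinc (SE 0.24 each).

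Excess minus normal zinc for AT4G30650 was 1.71 in mutant shoots (3.28-fold higher) and 0.58 in wild type shoots, without overlap in either genotype. Of the other 22745 probe sets, 3 had a larger positive difference in mutant shoots and 134 had one in wild type shoots. Since this response was part of what chose the gene, a high rank follows from the choice and is only a description. Low minus normal zinc was -0.25 in the mutant and 0.24 in wild type, with overlapping arrays in both.

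AT4G30660 (probe set 253581_at) had 8.82, 7.90 and 8.26 in mutant shoots at low zinc, against 9.50, 9.06 and 9.25 in wild type shoots. At normal zinc the arrays read 9.27, 8.13 and 9.18 in mutant shoots and 9.05, 9.26 and 9.47 in wild type shoots. At excess zinc they read 9.92, 10.60 and 10.31 in mutant shoots and 9.77, 10.25 and 10.04 in wild type shoots. The genotypes separated at low zinc and overlapped at the other supplies. Mutant minus wild type was -0.94 at low zinc (1.92-fold lower), -0.40 at normal zinc and 0.26 at excess zinc (SE 0.27 each). The value at normal zinc was -0.04 without mutant replicate 2, the lowest array of its group.

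Excess minus normal zinc for AT4G30660 was 1.42 in mutant shoots (2.67-fold higher) and 0.76 in wild type shoots, without overlap in either. In mutant shoots 12 of the other 22745 probe sets had a larger positive difference, a rank that also follows from the choice of the gene. Low minus normal zinc was -0.53 in the mutant and 0.01 in wild type, with overlapping arrays in both.

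**Figure D2:**
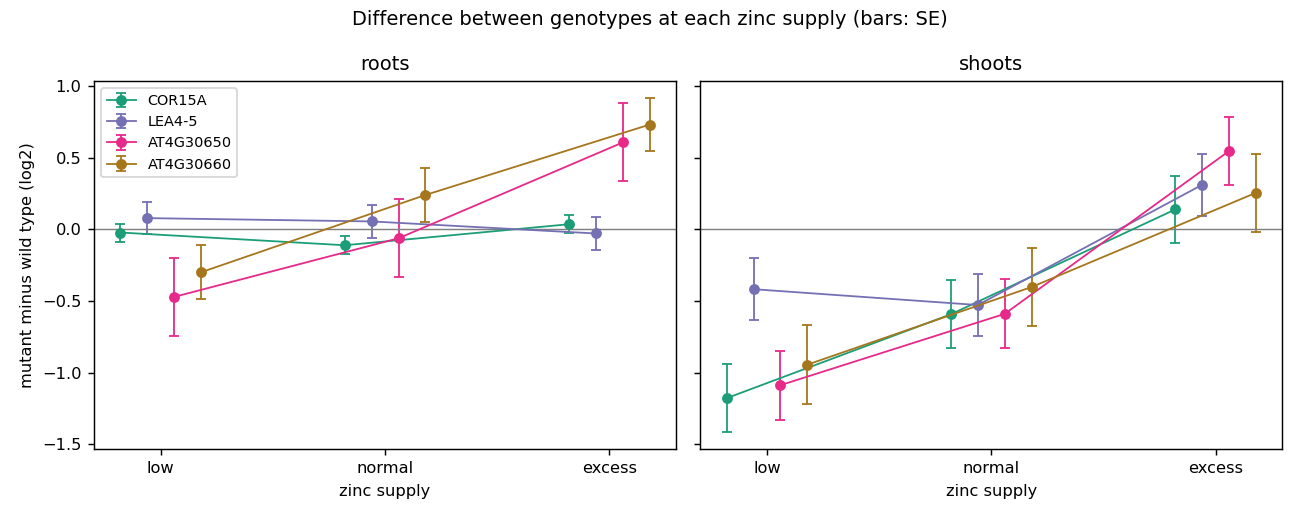
Difference of mutant minus wild type in log2 units (vertical axes) at low, normal and excess zinc (horizontal axes), for roots and shoots, with bars for ± 1 SE from the fit. In shoots the 4 values lie between -1.18 and -0.42 at low zinc, between -0.59 and -0.40 at normal zinc and between 0.14 and 0.55 at excess zinc.

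Over the 4 genes, the mutant lay below wild type without overlap for 3 in shoots at low zinc, where 12.9% of all probe sets did so, and for 3 at normal zinc, where 7.37% did. At excess zinc 2 lay above it without overlap, against 8.18% of all probe sets. Excess zinc arrays lay above normal zinc arrays for 3 genes in mutant shoots (13.2% of all probe sets) and for 2 in wild type shoots (9.43%), and below them for 1, LEA4-5, in wild type shoots (9.45%). Since shoot values chose the genes, these counts only describe them. The excess zinc response in the mutant minus that in wild type was 0.73 for COR15A, 0.84 for LEA4-5, 1.14 for AT4G30650 and 0.66 for AT4G30660. It was 0.29 for AT4G30660 without mutant replicate 2 at normal zinc and 0.45 for COR15A without wild type replicate 1 at excess zinc. The same difference of the low zinc responses was -0.59 for COR15A, 0.11 for LEA4-5, -0.50 for AT4G30650 and -0.54 for AT4G30660. The SE of both differences ran from 0.31 to 0.39 by gene. All 4 low zinc differences had 95% intervals that spanned both signs. These ran from -1.29 to 0.12 for COR15A and from -0.54 to 0.76 for LEA4-5. They ran from -1.22 to 0.22 for AT4G30650 and from -1.36 to 0.28 for AT4G30660. The excess zinc interval of AT4G30660 also spanned both signs (-0.16 to 1.48). With an array left out, only the low zinc difference of LEA4-5 changed sign. It ran from -0.16 without wild type replicate 2 at low zinc to 0.41 without replicate 1. For AT4G30650 it ran from -0.78 without mutant replicate 1 at low zinc to -0.28 without replicate 2. For AT4G30660 it was -0.91 without mutant replicate 2 at normal zinc, -0.34 without mutant replicate 1 there and -0.33 without mutant replicate 2 at low zinc.

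All 4 genes were lower in roots than in shoots, with 1 exception among 24 pairs of groups. The tags in the array file names also differed between roots and shoots, so tag and tissue cannot be told apart. The exception was LEA4-5 in wild type at excess zinc, at 5.44 ± 0.11 in roots (SD, n = 4) and 5.43 ± 0.07 in shoots (SD, n = 3). The COR15A difference of roots minus shoots ran from -5.24 to -4.02 on the log2 scale, that is 16.3 to 37.9-fold lower in roots. Its probe set was dim there, with group means of 4.58 to 4.74 that were brighter than 12.6% to 16.0% of all probe sets, a rank of brightness and not of transcript level. These means lay in the range of bZIP19 in the mutant, 4.46 to 4.92, and the deposited values carry no detection call, so the folds may be lower bounds. LEA4-5 was also dim in roots, with group means of 5.24 to 5.44, brighter than 25.4% to 28.8% of probe sets.

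The pair of RCI2/LTI6 genes was expressed in both tissues. For AT4G30650, roots minus shoots ran from -1.36 to -0.69 at low and normal zinc and was -2.66 in the mutant and -2.72 in wild type at excess zinc. For AT4G30660 it ran from -1.44 to -0.50 at low and normal zinc, and was -2.40 in the mutant and -2.88 in wild type at excess zinc. Root and shoot arrays of the mutant overlapped for AT4G30650 at normal zinc and for AT4G30660 at low and normal zinc.

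In wild type roots, AT4G30660 was called lower at excess than at normal zinc, and AT4G30650 did not pass the test. AT4G30660 had 6.83, 6.55, 7.38 and 7.81 in wild type roots at excess zinc, against 7.89, 8.01, 7.46 and 7.93 at normal zinc. The highest excess array exceeded the lowest normal array, so the groups overlapped. AT4G30660 fell by 0.68 (SE 0.19, 1.60-fold), with an adjusted p of 0.0226 in limma. It was the 1 of the 4 genes called in this comparison, where 9.70% of all probe sets were called (adjusted p under 0.05). The SD of AT4G30660 was 0.57 in wild type roots at excess zinc, against 0.10 to 0.25 in the other root groups. The fit pooled the spread over all root groups, and with the compared groups alone the adjusted p was 0.226 in limma. The call was lost when any of wild type replicates 1, 2 or 4 at normal zinc or replicates 1 or 2 at excess zinc was left out, with adjusted p from 0.0572 to 0.0908. Without excess replicate 2, the array that stood apart, the difference was -0.48 (adjusted p = 0.0908 in limma).

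AT4G30650 had 6.82, 5.60, 7.36 and 6.82 in wild type roots at excess zinc, against 7.21, 7.78, 7.00 and 7.76 at normal zinc. Its difference of -0.78 (SE 0.27) did not pass the test (adjusted p = 0.0728 in limma), and it was -0.43 (adjusted p = 0.280) without excess replicate 2, its lowest array. Without excess replicate 3, its highest, AT4G30650 was called (-1.02, adjusted p = 0.0179). COR15A differed by -0.16 (SE 0.06, adjusted p = 0.122), at the dim end of the array, and its arrays did not overlap; 4.40% of all probe sets lay lower without overlap. LEA4-5 differed by 0.12 (SE 0.11, adjusted p = 0.647). An unadjusted p under 0.05 in limma was reached by 3 of the 4 genes. The share of all probe sets at that level was not counted, and it is at least the 9.70% called, so this count is only a description.

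Marker genes were also lower in the same roots. The mean of the 3 root markers was 6.91 to 7.87 per array in wild type roots at excess zinc, against 7.97 to 8.37 at normal zinc, and that of the 3 photosynthetic markers was 6.32 to 6.72 against 6.70 to 7.76. In mutant roots at excess zinc the root markers read 7.87 to 8.35 and the photosynthetic markers 6.56 to 7.69. The part of these in the differences of the RCI2/LTI6 pair was not tested.

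In mutant roots no member was called for excess against normal zinc (5.07% of all probe sets were called), and none had an unadjusted p under 0.05. AT4G30650 had 7.50, 6.85, 7.15 and 7.54 at excess zinc, against 6.81, 7.93, 7.27 and 7.48 at normal zinc, a difference of -0.11 with a 95% interval from -0.68 to 0.45. AT4G30660 had 8.04, 7.69, 7.76 and 8.01 at excess zinc, against 7.76, 8.21, 7.97 and 8.30 at normal zinc, a difference of -0.19 with an interval from -0.58 to 0.20. COR15A differed by -0.01 and LEA4-5 by 0.03.

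At excess zinc AT4G30660 was higher in mutant than in wild type roots, by 0.73 (SE 0.19, 1.66-fold, adjusted p = 0.0498 in limma), although 1 wild type array, at 7.81, lay within the mutant range. This was the 1 of the 4 genes called, against 1.48% of all probe sets. The adjusted p lay close to the threshold, and the gene was called in 7 of 20 settings. Here too the fit pooled the spread over all root groups, and with the compared groups alone the adjusted p was 0.373 in limma. The call was lost when wild type replicate 1 or 2 or any 1 of the 4 mutant replicates was left out, with adjusted p from 0.0768 to 0.161; without wild type replicate 2 the difference was 0.53 (adjusted p = 0.161). AT4G30650 differed by 0.61 (SE 0.27, adjusted p = 0.256), which became 0.26 (adjusted p = 0.698) without that array. The excess zinc response in the mutant minus that in wild type was 0.67 for AT4G30650 (adjusted p = 0.735) and 0.49 for AT4G30660 (adjusted p = 0.729). With 0 of the 4 genes called by limma for this interaction, 0.0132% of all probe sets called and none of the 4 at an unadjusted p under 0.05, the responses of the genotypes were not shown to differ.

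At low zinc no member was called in roots. AT4G30650 had 7.06, 7.45, 7.16 and 7.38 in mutant roots at low zinc, against 7.68, 7.63, 7.77 and 7.85 in wild type roots. AT4G30660 had 7.95, 7.85, 7.82 and 7.68 in mutant roots at low zinc, against 8.06, 8.02, 8.24 and 8.16 in wild type roots. Both were lower in every mutant array, a pattern that 3.09% of all probe sets shared, but differences of -0.47 (adjusted p = 0.622) and -0.30 (adjusted p = 0.653) did not pass the limma test, in which 0.0835% of all probe sets were called. COR15A differed by -0.02 and LEA4-5 by 0.08. At normal zinc the 4 differences of mutant minus wild type ran from -0.11 to 0.24, with 0.0572% of all probe sets called and adjusted p in limma of 0.508 to 0.958.

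Low minus normal zinc gave no call for the 4 genes in either genotype of roots, where limma called 0.0484% of all probe sets in the mutant and 0.132% in wild type. In wild type roots AT4G30660 was higher at low zinc on every array, by 0.30 (SE 0.19, adjusted p = 0.685), and 3.38% of all probe sets were higher without overlap. In mutant roots its difference was -0.24 (adjusted p = 0.927). The interaction of genotype with low zinc called none of the 4 genes, and 0.0176% of all probe sets. None of the 4 had an unadjusted p under 0.05 in the low zinc responses, their interaction or the genotype differences at low and normal zinc.

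**Figure D3:**
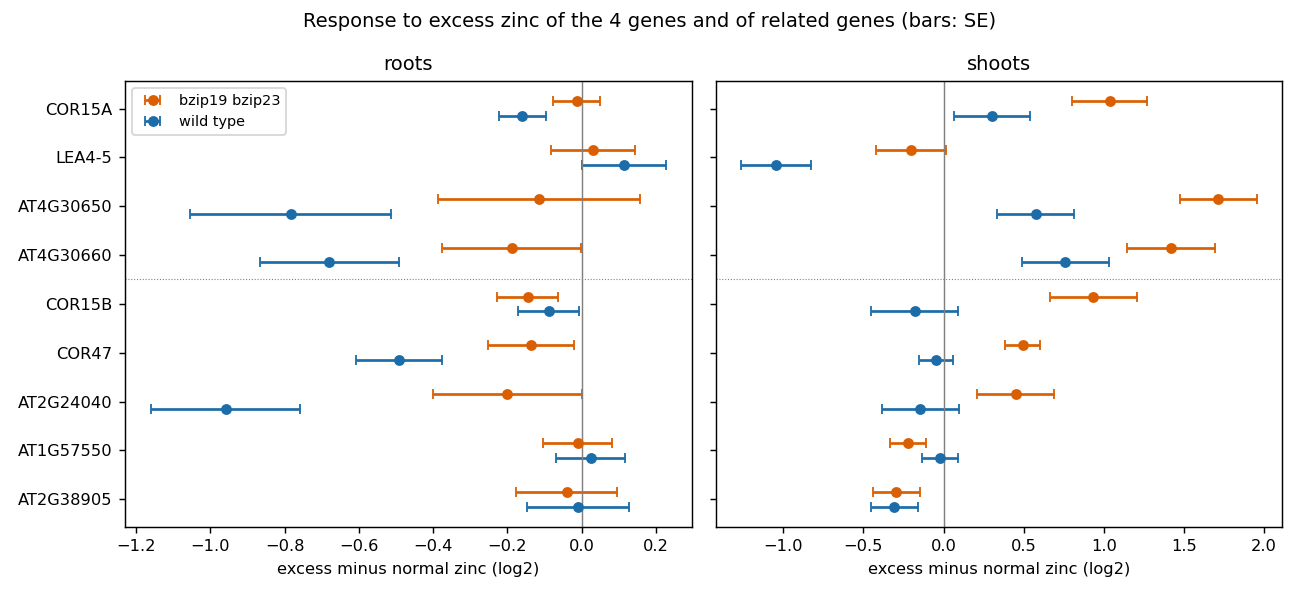
Difference of excess minus normal zinc in log2 units (horizontal axes) in roots and shoots, for the 4 genes above the dotted line and for related genes below it, with bars for ± 1 SE. AT4G30650 and AT4G30660 lie at 1.71 and 1.42 in mutant shoots and at -0.78 and -0.68 in wild type roots.

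AT4G30650 and AT4G30660 are next to each other in the RefSeq gene order of assembly TAIR10.1, and they varied together. Over the 42 arrays, with the mean of each group removed, Pearson's r between them was 0.75, with 0.70 over the 24 root arrays and 0.87 over the 18 shoot arrays. The points share arrays, and pairs of genes share whatever moves an array, so r is a description. Of the other probe sets, 180 had a higher r with AT4G30650 and 122 a higher r with AT4G30660 than the pair had with each other. AT4G30640, the neighbour of the pair, had an r of 0.11 with AT4G30650 and -0.04 with AT4G30660. Its excess minus normal differences lay between -0.33 and -0.17 in all 4 combinations of tissue and genotype.

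COR15A lies next to its paralogue COR15B, and their r within groups was 0.57, exceeded by 82 probe sets. COR15A had an r of 0.42 with LEA4-5, 0.29 with AT4G30650 and 0.32 with AT4G30660. LEA4-5 had an r of 0.16 with AT4G30650 and 0.13 with AT4G30660. Most of these values of r read differently in roots and in shoots, a difference that was not tested. COR15A and LEA4-5 were dim in roots, however, where COR15A arrays ran only from 4.52 to 4.78. The part of background signal in the root values of r for COR15A and LEA4-5 was not tested. COR15A and LEA4-5 had an r of 0.49 in roots and 0.44 in shoots. COR15A had -0.02 in roots and 0.57 in shoots with AT4G30650, and -0.27 in roots and 0.53 in shoots with AT4G30660. LEA4-5 had -0.10 in roots and 0.47 in shoots with AT4G30650, and -0.42 in roots and 0.47 in shoots with AT4G30660.

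**Figure D4:**
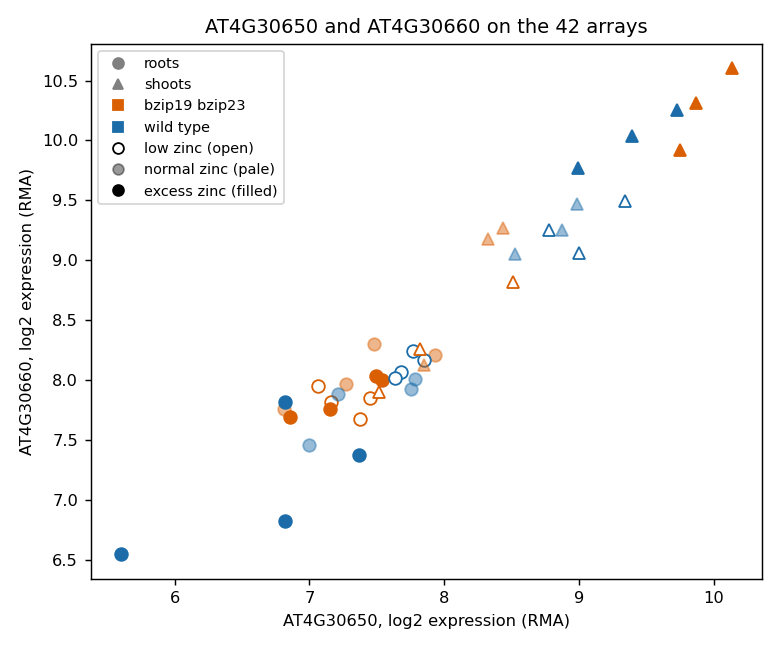
Log2 expression of AT4G30660 (vertical axis) against that of AT4G30650 (horizontal axis), with a point for each of the 42 arrays, coloured by genotype, shaped by tissue and filled by zinc supply. The 3 mutant shoot arrays at excess zinc include the top point at 10.14 and 10.60, and wild type roots at excess zinc include the lowest point at 5.60 and 6.55.

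Only probe sets paired with 1 gene were ranked here, without the members, whereas the counts of higher r above used all tested probe sets. The genes most like each member in pattern were ranked by Pearson's r over the 42 arrays after the mean of each tissue was removed. For COR15A they were AT5G01790 (0.86), AT1G68600 (0.85), CHIL, a chalcone isomerase-like protein of flavonoid synthesis (0.83), AT4G04750 (0.80) and AT1G15260 (0.79). For LEA4-5 they were AT5G01300 (0.79), AT1G65490 (0.78), AT5G11930 (0.77), AT4G02200 (0.71) and AT5G52740 (0.70). For AT4G30650 they were AT1G26920 (0.87), AT1G17510 (0.86), AT2G39725 (0.85), AT1G63220 (0.85) and AT5G53880 (0.85). For AT4G30660 they were AT2G39725 (0.86), AT5G53880 (0.86), AT2G14900 (0.84), AT5G66590 (0.84) and AT1G26920 (0.84). AT1G26920, AT2G39725 and AT5G53880 thus stood in both lists of the RCI2/LTI6 pair, whose own r on this scale was 0.90.

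Other genes of the same families and of cold and dehydration responses were read from lists of 140 genes, of which 31 had a probe set paired with them alone in the platform annotation used here: 3 of 6 in the RCI2/LTI6 family, 5 of 34 in the cold regulon, 23 of 34 among LEA proteins and dehydrins, and 0 of 66 in the abscisic acid response. The others were not analysed here. In wild type roots at excess against normal zinc, limma called 3, with 1 higher and 2 lower, a share of 9.68% against 9.70% of all probe sets. The count was 5 without wild type replicate 2 or replicate 4 at excess zinc. In mutant roots it called 2, both higher (6.45% against 5.07%). The median difference of the 31 was -0.034 in mutant roots, against -0.027 over all probe sets, and 0.0068 in wild type roots, against -0.00054 over all probe sets.

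AT2G24040, a further RCI2/LTI6 gene, had 7.61, 7.01, 8.30 and 8.53 in wild type roots at excess zinc, against 8.86, 8.71, 8.71 and 9.00 at normal zinc. It fell by 0.96 (SE 0.20, 1.94-fold, adjusted p = 0.0032 in limma), without overlap, and the call held without the array that stood apart (-0.68, adjusted p = 0.00561) but not in the fit of the compared groups alone (adjusted p = 0.127). In mutant roots it differed by -0.20 (adjusted p = 0.698), and at excess zinc it was higher in mutant than in wild type roots by 0.90 (adjusted p = 0.0292). That last call was lost without the array that stood apart (0.62, adjusted p = 0.0616), without wild type replicate 1 and without mutant replicate 1 or 3 (adjusted p from 0.0955 to 0.107). The interaction was 0.76 (adjusted p = 0.659). In shoots its difference at excess zinc was 0.45 in the mutant (adjusted p = 0.315) and -0.14 in wild type (adjusted p = 0.917).

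The other RCI2/LTI6 genes measured, AT1G57550 and AT2G38905, had no call in any comparison. Their differences ran from -0.12 to 0.08 and from -0.16 to 0.02 in roots, and from -0.22 to 0.09 and from -0.31 to 0.03 in shoots. LEA4-1 and LEA4-2, relatives of LEA4-5, were dim in every group, with means of 4.45 to 4.88 and 4.18 to 4.40, and were not called either.

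COR47, a dehydrin of the cold regulon, had 10.50, 10.46, 10.31 and 10.59 in wild type roots at excess zinc, against 11.22, 10.65, 10.95 and 11.00 at normal zinc. It fell by 0.49 (SE 0.12, adjusted p = 0.00834 in limma), a call lost in the fit of the compared groups alone (adjusted p = 0.0686). At excess zinc COR47 was higher in mutant roots, at 10.79, 11.27, 11.03 and 10.87, than in wild type roots, by 0.53 (adjusted p = 0.0279). With AT2G24040 it made up the 2 of 31 listed genes called in that comparison (6.45%, against 1.48% of all probe sets). Both calls between genotypes were lost in the fit of the compared groups alone (adjusted p = 0.263 for COR47 and 0.357 for AT2G24040). The COR47 call was also lost without any 1 of wild type replicates 1, 2 or 3 or of mutant replicates 2 or 3 (adjusted p from 0.0529 to 0.101).

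In mutant shoots COR47 had 10.58, 10.33 and 10.14 at excess zinc, against 9.96, 9.64 and 9.97 at normal zinc, and it rose by 0.49 (SE 0.11, adjusted p = 0.0214 in limma). It was the 1 listed gene called in that comparison, where 3.20% of all probe sets were called. The call was lost without mutant replicate 2 at normal zinc or mutant replicate 1 or 2 at excess zinc (adjusted p from 0.0751 to 0.0884). The wild type difference was -0.04 (adjusted p = 0.949), and the interaction of 0.54 was not called (adjusted p = 0.551). COR15B had 8.19, 8.23 and 8.06 in mutant shoots at excess zinc, against 7.62, 6.74 and 7.31 at normal zinc. The COR15B difference of 0.94 (SE 0.27) did not pass the test (adjusted p = 0.0693), although the arrays did not overlap. In wild type shoots COR15B differed by -0.18 (adjusted p = 0.907), and the interaction was 1.12 (SE 0.38, adjusted p = 0.551).

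The remaining calls concerned 3 genes. ZAT10, a zinc finger repressor induced by cold, salt and drought, rose at excess zinc by 0.86 in mutant roots (SE 0.13, adjusted p = 0.000182 in limma) and by 0.85 in wild type roots (adjusted p = 0.000124). COR28, a cold-regulated gene linked to the circadian clock, had 7.09, 6.71, 6.61 and 7.59 in mutant roots at excess zinc, against 5.70, 5.71, 5.25 and 4.76 at normal zinc. COR28 rose there by 1.64 (SE 0.43, 3.12-fold, adjusted p = 0.0252), and the call was lost without mutant replicate 3 or 4 at normal zinc or replicate 1 or 4 at excess zinc (adjusted p from 0.0631 to 0.104). In wild type roots COR28 had 7.74, 5.08, 7.70 and 7.44 at excess zinc, against 5.25, 6.20, 5.93 and 6.67 at normal zinc. The difference of 0.98 did not pass the test (adjusted p = 0.173), but without replicate 2 at excess zinc, the array that stood apart, it was 1.62 and called (adjusted p = 0.00104 in limma). HIRD11, a histidine-rich dehydrin able to bind metal ions, had 11.64, 11.30 and 11.47 in mutant shoots at low zinc, against 12.17, 11.90 and 11.94 in wild type shoots. HIRD11 was lower in the mutant (difference -0.53, SE 0.13, adjusted p = 0.0266), as the 1 listed gene called, against 5.88% of all probe sets. Without the wild type shoot array that stood apart its difference was -0.45 (adjusted p = 0.0831), and the call was also lost without mutant replicate 2 or 3 (adjusted p = 0.174 and 0.0746).

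No listed gene was called in the other comparisons. In shoots these were mutant against wild type at normal (0.0220% of all probe sets called) and excess zinc (0.0308%), excess against normal zinc in wild type (0.620%), low against normal zinc in the mutant (0.0659%) and in wild type (0.703%), and both interactions (0.0132% for low and 0% for excess zinc). The median difference of mutant minus wild type over the 31 genes in shoots was -0.039 at low zinc (-0.023 over all probe sets), -9.9e-06 at normal zinc (0.0050 over all) and 0.033 at excess zinc (0.0029 over all). Of the 31 genes 23 are LEA proteins or dehydrins, so these medians mostly describe that part of the lists.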

How the data were processed

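Total RNA of 24 root and 18 shoot samples was measured on 42 arrays. The deposited values are log2 values per probe set, made by the authors with RMA and limma per the submitters' processing notes, whose versions and annotation build were not stated in the sources at hand. Of 22810 probe sets, 64 controls were left out, with no filter on low values. Of the 22746 tested, 13513 (59.4%) were paired with 1 gene, 503 with several and 8730 with none. Depth does not apply to arrays: their number limits the precision.

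Tests were two-sided and used lmFit, contrasts.fit and eBayes of limma 3.58.1 (R 4.3.3), with a separate fit for each tissue, 1 mean per group and Benjamini-Hochberg adjustment over all 22746 probe sets; a probe set was called at an adjusted p under 0.05. The code was tested on simulated data. There were 9 comparisons per tissue. Tables and plots used Python 3.11.15, pandas 2.3.3, numpy 2.4.6 and matplotlib 3.10.9. Gene order came from RefSeq (TAIR10.1).

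The members and lists were chosen with earlier results of these data known. The text names the members, the other RCI2/LTI6 and LEA4 genes, COR15B, each listed gene called, and the 5 genes most like each member. The labels do not say that samples of a group came from separate experiments, so p-values measure the spread between samples. Same-numbered replicates deviated together in 1 comparison, mutant against wild type roots at normal zinc (r from 0.20 to 0.50), where a replicate block changed no call. Other settings tried were the arrays in the fit, each array left out, the variance prior, the scaling, a filter on dim probe sets, an RNA quality covariate and the set of adjusted p-values.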

Additional observations from a re-analysis of the deposited data

Results flagged for a closer look

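In 10 of 68 pairs of effects looked at among the 4 genes, every array of the first-named group lay on one side of the mean of the arrays it was set against in one comparison, and on the opposite side in the other. The share of all probe sets with such a pattern was not counted, so these counts only describe the 4 genes. The groups set against each other could still overlap: in 3 of the 10 pairs they overlapped in neither comparison. Those 3 were shoot genotype differences, of LEA4-5 at excess against normal zinc and of AT4G30650 at excess against normal and against low zinc. Differences are first effect minus second effect in log2 units. LEA4-5 in shoots had a genotype difference of 0.31 at excess zinc, against -0.53 at normal zinc (0.84) and -0.42 at low zinc (0.73). AT4G30650 in shoots had a genotype difference of 0.55 at excess zinc, against -0.59 at normal zinc (1.14) and -1.09 at low zinc (1.64). These differences in shoots are part of what chose the genes and were not tested.

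In roots the genotype difference at excess zinc exceeded that at low zinc by 1.08 for AT4G30650 and by 1.03 for AT4G30660. The response to excess zinc in roots minus that in shoots was -1.36 for AT4G30650 and -1.44 for AT4G30660 in wild type, and -1.61 for AT4G30660 in the mutant. These 5 differences were not tested. AT4G30660 in roots responded to low zinc by -0.24 in the mutant and by 0.30 in wild type, a difference of -0.54 that did not pass the interaction test (adjusted p = 1.00 in limma).

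Single arrays stood far from the other 3 of their group in 7 of 84 groups of 4 root arrays examined over 14 genes; chance flags about 5% of such groups. The values were 6.70 for AT1G57550 in wild type at low zinc (replicate 1, high), 5.26 for AT2G38905 in the mutant at excess zinc (replicate 2, high) and 5.39 for COR15B in the mutant at normal zinc (replicate 1, low). LEA4-1 had 4.44 in wild type at excess zinc (replicate 4, low) and ZAT10 had 8.06 in wild type at low zinc (replicate 3, low). COR28 had 6.24 in the mutant at low zinc (replicate 2, high) and 5.08 in wild type at excess zinc (replicate 2, low), where that array was the one that stood apart. None of the 4 members was among these.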

How the results depend on the processing

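Of 1375 member values recomputed over 11 alternatives and 42 arrays left out in turn, 648 were shoot values, which had no threshold to cross. Among the root values 22 crossed it, all for AT4G30650 or AT4G30660. They lay in wild type roots at excess against normal zinc or in mutant against wild type roots at excess zinc. AT4G30660 was called in 13 of 20 settings in the former and in 7 of 20 in the latter. The margin for shoot values was the SD of single arrays within groups, pooled over the shoot groups (0.299 to 0.383 by gene). It is wide beside differences of that size. Changes to the groups fitted, the variance prior, the dim filter, the replicate block or the adjustment could not move these differences of group means. Leaving out an array moves a mean by less than the SD of its own group. The outcome was thus largely fixed in advance: all 648 shoot values moved by less than the margin. Of these, 11 changed sign, in 5 of 36 combinations of gene and comparison: COR15A for mutant minus wild type at excess zinc and for low minus normal zinc in the mutant, LEA4-5 and AT4G30660 for low minus normal zinc in wild type, and LEA4-5 for the low zinc interaction.

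In roots the call of 1 member at excess against normal zinc in wild type became 2 with all 42 arrays in 1 fit, 0 with the compared groups only, 0 with the arrays of 1 tag, and 0 to 2 with an array left out. The call of 1 member in mutant against wild type roots at excess zinc became 0 under those 3 settings, with a replicate block, with array medians subtracted, with a further quantile normalisation and with adjustment over probe sets paired with 1 gene, and 0 to 1 with an array left out.

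Of the listed genes in roots, 3 were called in wild type at excess against normal zinc, 1 with the compared groups only, 5 with a replicate block and 3 to 5 with an array left out. In mutant roots 2 were called, 1 within 1 tag and 1 to 2 with an array left out; at low against normal zinc 0 became 1 with dim probe sets dropped and 0 to 1 with an array left out. Of 2 in mutant against wild type roots at excess zinc, 0 were called with the compared groups only or within 1 tag, 4 with the RNA quality covariate and 0 to 4 with an array left out. In shoots 1 was called at excess against normal zinc in the mutant, 3 with all 42 arrays, 0 with the compared groups only and 0 to 1 with an array left out. In wild type shoots 0 became 1 with all 42 arrays. In mutant against wild type shoots at low zinc 1 became 0 with the compared groups only or within 1 tag, and 0 to 1 with an array left out. The causes were not tested. The smaller fits held fewer arrays and also took the spread from fewer groups. The COR15B difference at excess zinc in wild type shoots ran from -0.34 to 0.0845 with an array left out, and turned positive without excess replicate 1. COR15A had no value in roots with dim probe sets dropped. Same-numbered replicates were otherwise not paired, and a replicate block moved no other count of calls by over 1.5 times.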
